A study of Mus musculus with 41 samples.

Results

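The Eph receptors described here are 10 genes, 5 of class A (Epha2, Epha3, Epha4, Epha5 and Epha7) and 5 of class B (Ephb1, Ephb2, Ephb3, Ephb4 and Ephb6), found by gene symbol among the 34591 entries of a mouse RNA-seq table. The table lists 14 Eph receptor genes in all. The other 4, Epha1, Epha6, Epha8 and Epha10, were followed as a separate list, together with the 8 ephrin genes and 46 genes of Eph signaling and receptor processing. Every member passed the filter on low values in every comparison.

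Eph receptors are receptor tyrosine kinases that read contact with neighboring cells, because their ligands, the ephrins, are themselves bound to cell membranes. Class A receptors mostly bind ephrin-A ligands, which hang on a lipid anchor, and class B receptors mostly bind the transmembrane ephrin-B ligands, with Epha4 binding both kinds. In the developing brain the receptors set cell boundaries, including those between hindbrain segments, steer axons and act on neural progenitors, and signals can run into the cell that carries the ephrin as well as into the cell that carries the receptor.

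RNA was measured in 29 brainstem tumors and 12 neurosphere libraries, neurospheres being clusters of neural progenitors grown in suspension. In all animals a stop sequence between loxP sites (LSL) preceded a tagged copy of H3f3a, a gene for histone H3.3, so that Cre recombinase switched on either H3.3 carrying methionine in place of lysine 27 (K27M, the change found in diffuse midline gliomas) or the tagged wild-type histone (WT-Tag). Lysine 27 of H3 is the residue that the Polycomb complex PRC2 methylates, typically at promoters rich in CG dinucleotides, and the K27M histone lowers that methylation in most places. The question put to the receptors was whether their RNA differed with the K27M histone, and whether it did so alike in tumors and in cultures of both brain regions.

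The 20 K27M tumors had the genotype Nestin-creERT2, H3f3a LSL-K27M-Tag/+, LSL-PDGFRαV544ins and Trp53 flox/flox, and the 9 WT-Tag tumors had H3f3a LSL-WT-Tag/+ in the same setting. Both tumor groups therefore shared an inducible Cre driven from Nestin, an altered PDGF receptor and loss of p53, and differed by the tagged histone. The cultures carried Nestin-cre and H3f3a LSL-K27M-Tag/+ or H3f3a LSL-WT-Tag/+, with neither the PDGF receptor nor the Trp53 alleles, and came from forebrain or hindbrain of e15.5 embryos. Each region gave 3 cultures per genotype, labelled with an experiment id from 1 to 3, which is also the replicate number used below. The labels used here give no age for the tumor animals. Tumor pieces were bulk tissue, so fewer cells of a type and less RNA per cell cannot be told apart. Nothing in the labels says that the cultures of a group came from separate embryos, so the p-values measure the spread between these libraries, which may be partly technical.

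Values are FPKM, fragments counted per unit of transcript length and per unit of sequencing depth, which compares genes per unit of length. Depth, recovered from the smallest steps between FPKM values, ran from 10000000 to 67400000 fragments, and its median was lower for K27M in each setting (34500000 against 47600000 in tumors, 29800000 against 40500000 in forebrain cultures and 30200000 against 38600000 in hindbrain cultures). The labelled regions matched their markers in part: 9 forebrain identity genes summed to between 16.9 and 24.7 FPKM in forebrain cultures and to at most 2.00 in hindbrain cultures, whereas 13 hindbrain identity genes overlapped between the regions, at 18.8 to 30.3 and 18.9 to 38.9 FPKM. The hindbrain identity sums leaned on few genes, as 12 of the 13 had a median under 1 FPKM in forebrain and K27M hindbrain cultures. In WT-Tag hindbrain cultures 9 did. Egr2 alone had means of 29.3 FPKM in K27M and 13.9 in WT-Tag hindbrain cultures. En2 was higher in hindbrain than in forebrain WT-Tag cultures, at 2.1 against 0.061 FPKM (1.51 ± 0.19, adjusted p = 0.00143, limma). Egr2 did not pass there, and neither passed in K27M cultures. En2 met the filter of 1 FPKM in 3 libraries largely through WT-Tag hindbrain cultures, with a mean of 0.619 in K27M hindbrain cultures. Its direction was thus favored by the filter, and it was not tested without experiment 3. Progenitor markers were high in all cultures, with sums from 2259 to 2780 FPKM over 12 genes. The level of Xist went against the sex label of WT-Tag tumors 8 and 9, so tumor results are also given without them. Xist was also low for the female label of K27M tumor 14, at 1.90 FPKM. The next lowest K27M tumor labelled female, tumor 19, had 14.6. Tumor 14 was kept, except where each library was left out in turn. In experiment 3 genotype and sex label coincided (male WT-Tag, female K27M), so values without that experiment are given where they differ.

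Promoter sequence is shown for the 3 receptors whose RNA differed most between K27M and WT-Tag hindbrain cultures, since Polycomb marks gather at CG-rich promoters. All 10 receptors were matched by symbol to RefSeq promoters of build GRCm38.p6, and each line gives the 250 bases upstream of the annotated start, read 5′ to 3′ along the gene's strand, with every CG dinucleotide in capitals. The Epha3 stretch lies on the minus strand at chr16:63864176-63864425, that of Ephb4 on the plus strand at chr5:137349859-137350108 and that of Epha4 on the minus strand at chr1:77515089-77515338.
Epha3 promoter: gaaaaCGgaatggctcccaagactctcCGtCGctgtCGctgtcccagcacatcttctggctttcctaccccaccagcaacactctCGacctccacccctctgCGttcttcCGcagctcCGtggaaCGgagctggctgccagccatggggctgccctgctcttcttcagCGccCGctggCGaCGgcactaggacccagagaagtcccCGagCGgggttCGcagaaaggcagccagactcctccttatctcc
Ephb4 promoter: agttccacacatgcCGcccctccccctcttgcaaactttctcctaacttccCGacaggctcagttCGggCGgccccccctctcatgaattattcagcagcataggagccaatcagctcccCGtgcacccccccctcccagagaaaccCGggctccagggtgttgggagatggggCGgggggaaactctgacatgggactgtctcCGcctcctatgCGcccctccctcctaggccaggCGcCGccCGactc
Epha4 promoter: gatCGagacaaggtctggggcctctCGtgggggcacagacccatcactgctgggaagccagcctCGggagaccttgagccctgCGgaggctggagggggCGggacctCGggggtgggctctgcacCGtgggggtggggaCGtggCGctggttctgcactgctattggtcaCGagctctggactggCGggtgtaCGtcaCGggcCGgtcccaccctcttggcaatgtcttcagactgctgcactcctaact
The Epha3 stretch holds 16 CG dinucleotides, a number reached by 25.4% of the 32851 promoters of the same length, and the median promoter holds 6. Ephb4 has 12, reached by 33.5% of promoters, and Epha4 has 14, reached by 29.4%. Epha2, the receptor with the fewest, has 9 (40.3%), and Ephb6, with the most, has 27 (8.56%). All 10 receptors thus lie above the median promoter in CG number, both the ones that rose and the ones that did not pass the test. The histone marks themselves were not analysed here.

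The levels of the receptors set tumors apart from cultures. In K27M tumors the highest were Epha4, a receptor for both ephrin classes, at 7.52 ± 3.24 FPKM (SD, n = 20), and Ephb6, a class B receptor whose kinase domain is inactive, at 6.92 ± 2.09, and these did not separate, Epha4 being above Ephb6 in 10 of 20 tumors. Ephb3 came next at 4.44 ± 1.74 and lay below Ephb6 in 15 of the 20. The WT-Tag tumors had the same leading 3, at 6.79 ± 3.24, 5.25 ± 2.44 and 3.51 ± 1.36 FPKM (n = 9). In forebrain cultures of both genotypes Epha5 and Epha4 led, with Epha5 at 8.68 ± 0.596 in K27M and 8.54 ± 0.242 in WT-Tag cultures (n = 3 each), and with the order of the pair changing between WT-Tag libraries. WT-Tag hindbrain cultures had the same leading pair by mean, at 6.71 ± 1.22 for Epha5 and 6.49 ± 3.32 for Epha4, but not in every library. In replicate 1 Epha4, at 3.12 FPKM, lay below Ephb3, Ephb4 and Epha3 as well as Epha5. In replicate 3 Ephb3, at 7.09, was just above Epha5, at 7.05. K27M hindbrain cultures had another leader: Epha3 was at 15.8 ± 2.35 FPKM, above Epha5 in 3 of 3 libraries. Epha4 was in the eighth place by mean there, at 2.73 ± 0.116. The 10 receptors together summed to 50.9 ± 5.93 FPKM in K27M hindbrain cultures and to 33.7 ± 6.17 in WT-Tag hindbrain cultures.

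**Figure D1:**
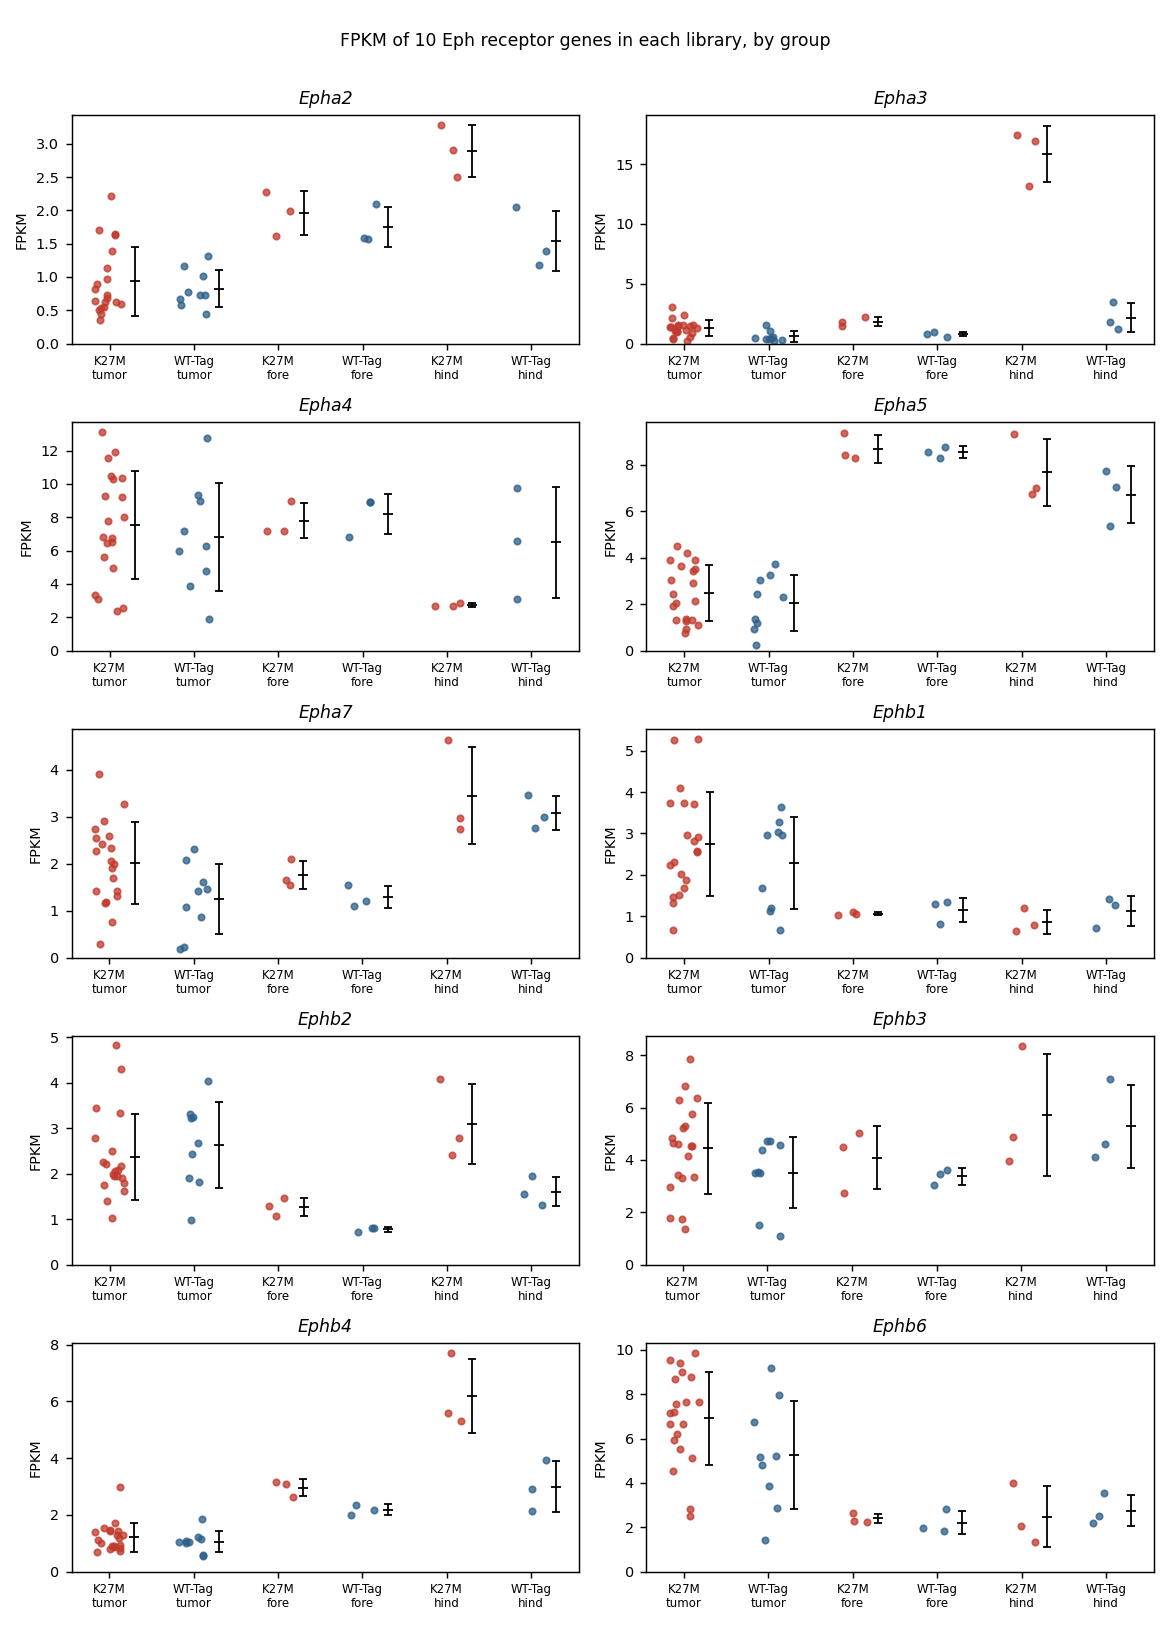
Deposited FPKM (linear axis from 0, a separate scale for each gene) of the 10 Eph receptors in every library, with K27M libraries in red and WT-Tag libraries in blue, for tumors and for forebrain (fore) and hindbrain (hind) cultures. The black bars give the mean ± SD of a group. Epha3 stands at 13.1 to 17.4 FPKM in the 3 K27M hindbrain cultures and at most at 3.49 in any other library.

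The K27M comparison was made in each setting with limma on log2(FPKM + 1), and a change below is a difference on that scale ± SE, which understates the change of genes at low FPKM. In hindbrain cultures 4 receptors were higher with K27M (Epha2, Epha3, Ephb2 and Ephb4), 1 was lower (Epha4) and 5 did not pass an adjusted p of 0.05. Of all 13190 genes tested in that comparison 13.5% passed. The median change of the 10 receptors was 0.14, against 0.09 for all genes. Groups of 3 that do not overlap are given below as description only. Such a separation reaches no permutation p under 0.1, and its share over all genes was not counted.

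Epha3, a class A receptor that binds ephrin-A ligands, had 16.9, 17.4 and 13.1 FPKM in the K27M hindbrain cultures of experiments 1, 2 and 3. The matching WT-Tag cultures had 3.49, 1.19 and 1.79 FPKM. Every K27M culture was well above every WT-Tag culture, and the mean was 7.33-fold higher. The change was 2.47 ± 0.22 (adjusted p = 0.000254, limma), was positive in 3 of 3 experiments and passed the threshold under each of 19 alternative settings, with adjusted p from 1.97e-05 to 0.0372. Epha3 was the only receptor of the 10 still past the threshold without experiment 3, a fit in which 0.76% of all genes passed.

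Ephb4, which binds ephrin-B2 and is best known from veins, had 5.60, 5.32 and 7.70 FPKM in K27M hindbrain cultures, against 3.94, 2.13 and 2.90 in WT-Tag cultures. The groups did not overlap, and the change was 0.86 ± 0.17 (adjusted p = 0.00939, limma). The call was lost without experiment 3 (adjusted p = 0.155) and when the fit held only the hindbrain libraries (0.0663). Endothelial markers were low in these cultures: the 12 genes summed to between 2.42 and 2.80 FPKM in K27M and between 1.30 and 1.47 in WT-Tag hindbrain cultures, with 1 marker at 0 in every K27M library, against 28.6 to 78.4 in K27M tumors. The 1 endothelial marker that passed the filter, Egfl7, was itself higher with K27M, at 1.29 against 0.514 FPKM (0.60 ± 0.12, adjusted p = 0.0123, limma). It was also higher in hindbrain than in forebrain K27M cultures (0.79 ± 0.12, 0.00306). In the other culture groups all 12 endothelial markers had medians under 1 FPKM. Egfl7 thus met the filter largely through the K27M hindbrain cultures, and the filter favored the direction of both calls. Egfl7 was not tested without experiment 3. Its part in the Ephb4 change was not tested.

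Ephb2, a class B receptor of axon pathfinding and synapses, had 2.78, 2.40 and 4.08 FPKM with K27M and 1.56, 1.31 and 1.95 in WT-Tag hindbrain cultures. The groups were separate, by a change of 0.64 ± 0.15 (adjusted p = 0.0229, limma). Epha2, a class A receptor often studied in cancer cells, had 3.28, 2.91 and 2.50 FPKM with K27M and 2.05, 1.19 and 1.39 without, again with no overlap, and changed by 0.62 ± 0.15 (adjusted p = 0.0215, limma). Both were higher with K27M within each of the 3 experiments. Both lost the call without experiment 3 (adjusted p = 0.103 for Ephb2 and 0.148 for Epha2, limma), and also without any 1 of several single libraries: Ephb2 without K27M replicate 1 (0.0626), K27M replicate 3 (0.0597) or WT-Tag replicate 2 (0.0952), and Epha2 without K27M replicate 1 (0.0903), K27M replicate 2 (0.061), WT-Tag replicate 2 (0.0889) or WT-Tag replicate 3 (0.0755).

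Epha4 moved the other way. It had 2.87, 2.67 and 2.67 FPKM in K27M hindbrain cultures and 3.12, 6.59 and 9.76 in the WT-Tag cultures of experiments 1, 2 and 3. The K27M cultures were nearly equal and all lay below the WT-Tag cultures, which spread over a wide range, with that of experiment 1 just above the K27M level. The change was -0.90 ± 0.27 (adjusted p = 0.047, limma), made up of differences of -0.09, -1.05 and -1.55 within experiments 1, 2 and 3. This call was the least firm of the 5: it was lost in 14 of 19 alternative settings, with adjusted p up to 0.33 without experiment 3, and leaving out WT-Tag replicate 3 moved the change to -0.58 (0.149).

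The 5 receptors that did not pass in hindbrain cultures had changes between -0.18 and 0.17. Epha5, an axon guidance receptor, was at 7.67 FPKM with K27M and 6.71 without, Epha7 at 3.45 and 3.08, and Ephb3 at 5.73 and 5.28, each with overlapping groups. Ephb1 was at 0.868 and 1.13 FPKM and Ephb6 at 2.47 and 2.74. Their standard errors, from 0.13 to 0.25, leave room for changes of the size seen for Ephb2 or Epha2 in some of them, so that a missed threshold does not show equal levels.

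**Figure D2:**
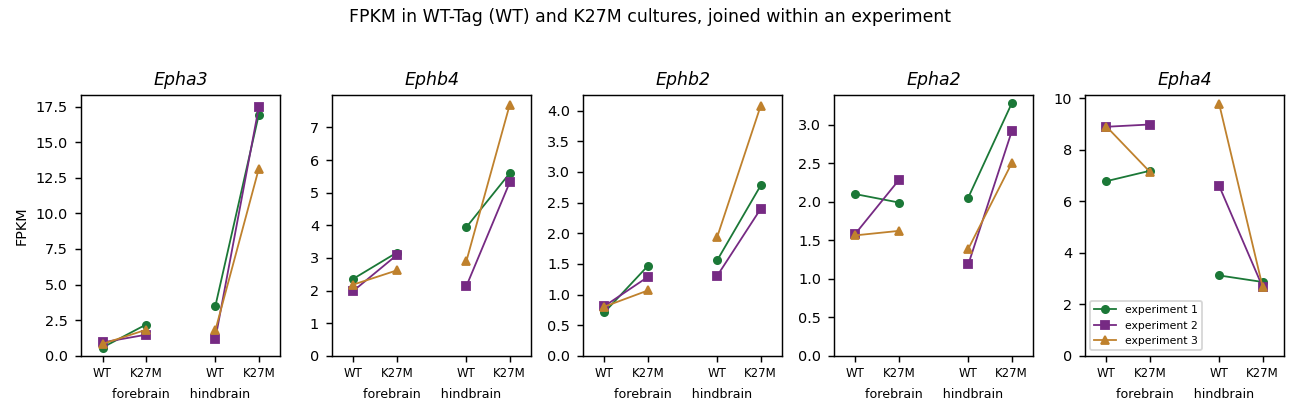
FPKM (linear axis from 0) of the 5 receptors called in hindbrain cultures, in WT-Tag (WT) and K27M cultures of forebrain and hindbrain, with a line joining the 2 cultures of the same experiment. Epha3 rises from 3.49, 1.19 and 1.79 to 16.9, 17.4 and 13.1 FPKM in hindbrain, and Epha4 in hindbrain differs by -1.55 in experiment 3 and by -0.09 in experiment 1 on the log2 scale.

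Other markers moved with the K27M histone in the same hindbrain cultures. The 12 astrocyte markers summed to between 324 and 365 FPKM with K27M and between 607 and 810 in WT-Tag cultures, and the 12 markers of mature oligodendrocytes to between 22.7 and 33.0 and between 38.8 and 113. Proliferation markers overlapped, with medians of 714 and 420 FPKM, as did the sums of oligodendrocyte precursor markers, at 486 to 537 and 520 to 677. Single genes of the precursor list did change, 4 of the 9 tested being lower with K27M at a median of -0.73 over the list: Gpr17, C1ql1, Lhfpl3 and Bcan, named after their values were seen, by -2.33, -1.27, -2.06 and -0.73. Of the 12 neural stem and progenitor markers 2 were higher (Nes and Vim, by 0.89 and 1.16) and 3 lower (Fabp7, Prom1 and Slc1a3, by -0.77, -0.35 and -1.02), also named after their values were seen. Of these 9 marker calls only that of Bcan held without experiment 3 (adjusted p = 0.0434, limma). Neuron markers overlapped as well, at 73.8 to 98.7 and 57.1 to 86.0 FPKM over 15 genes. Of the 6 tested 1 passed, Elavl3, which was lower with K27M (-0.64, adjusted p = 0.0302, limma). Both hindbrain identity genes tested changed, En2 by -0.90 (0.0124) and Egr2 by 1.09 (0.025). En2 met the filter largely through WT-Tag hindbrain cultures, at 2.1 against 0.619 FPKM with K27M, so the filter favored that direction. Of 5 forebrain identity genes tested 1 passed, Otx1, by 0.97 (0.0178). These genes were also named after their values were seen. Without experiment 3 Elavl3, Egr2 and Otx1 did not pass (adjusted p from 0.158 to 0.278, limma), and En2 was not tested. The part of all these markers in the receptor changes was not tested, and neither was that of the lower depth of the K27M cultures.

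In forebrain cultures 0 of the 10 receptors passed (limma), where 0.356% of all genes passed. An unadjusted p below 0.05 (limma) was found for 2 receptors and for 1726 of all 13190 genes. Epha3 had 2.19, 1.48 and 1.83 FPKM in the K27M forebrain cultures of experiments 1 to 3 and 0.585, 0.943 and 0.837 in the WT-Tag cultures. The groups did not overlap, yet the change of 0.66 ± 0.22 had an adjusted p of 0.24 (limma). Ephb2, the other, was at 1.47, 1.29 and 1.07 FPKM with K27M and 0.711, 0.811 and 0.803 without, with a change of 0.35 ± 0.15 (adjusted p = 0.358, limma). Ephb4 had separate groups too, at 2.62 to 3.17 and 1.99 to 2.37 FPKM, with a change of 0.31 ± 0.17 and an adjusted p of 0.456 (limma). With 3 libraries against 3 such separation is weak evidence of a difference. Epha4 was nearly level here, at 7.77 ± 1.05 FPKM with K27M and 8.20 ± 1.22 without (n = 3 each). The median change of the 10 receptors was 0.15, against 0.04 for all genes. Astrocyte markers were lower with K27M in forebrain cultures as well, at 421 to 526 against 611 to 870 FPKM, which was not tested for its part in these values.

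Whether the K27M difference was larger in hindbrain than in forebrain was tested as a difference of differences. 0 of the 10 receptors passed (limma), where 0.0379% of all genes passed. An unadjusted p below 0.05 (limma) was found for 4 receptors and for 831 of all 13190 genes. The estimate for Epha3 was 1.81 ± 0.32, with an unadjusted p of 0.000127 and an adjusted p of 0.148 (limma). For Ephb4 the difference was 0.55 ± 0.24, for Epha2 0.52 ± 0.21 and for Epha4 -0.83 ± 0.38, with adjusted p from 0.732 to 0.786 (limma). Calls in hindbrain and not in forebrain were therefore not shown to differ between the regions. Without WT-Tag hindbrain replicate 1, the culture with the highest WT-Tag Epha3 and the lowest WT-Tag Epha4, 2 receptors did pass: Epha3, at 2.09 (adjusted p = 0.0025, limma), and Epha4, at -1.21 (0.0239).

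In tumors 0 of the 10 receptors differed between K27M and WT-Tag past the threshold (limma), where 0.0846% of all 15360 genes tested passed. An unadjusted p below 0.05 (limma) was found for 2 receptors and for 1104 of the 15360 genes. The K27M mean was above the WT-Tag mean for 9 of the 10, and the median change was 0.20, against -0.01 for all genes. Epha3 ran from 0.239 through a median of 1.33 to 3.07 FPKM in K27M tumors and from 0.221 through 0.444 to 1.58 in WT-Tag tumors. The ranges overlapped, although 18 of 20 K27M tumors were above the WT-Tag median, and the change was 0.51 ± 0.16 (unadjusted p = 0.00388, adjusted p = 0.434, limma). Epha7, a class A receptor of cortical and hindbrain patterning, ran from 0.299 through 2.03 to 3.91 FPKM and from 0.187 through 1.42 to 2.32, with a change of 0.44 ± 0.19 (adjusted p = 0.64, limma).

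Ephb6 had a lowest, median and highest level of 2.50, 7.17 and 9.86 FPKM in K27M tumors and of 1.43, 5.17 and 9.20 in WT-Tag tumors, with a change of 0.39 ± 0.20 (adjusted p = 0.715, limma). Epha4 spread over a wide range in both genotypes, at 2.37, 7.29 and 13.1 FPKM and at 1.92, 6.28 and 12.8, and its change of 0.13 ± 0.25 was smaller than its error. Ephb2 was the only receptor with a lower mean in K27M tumors, at 2.36 ± 0.946 against 2.62 ± 0.948 FPKM, by -0.11 ± 0.15 (adjusted p = 0.901, limma). The medians of Epha2, Epha5 and Ephb1 were lower in K27M tumors too, for Ephb1 at 2.56 against 2.96 FPKM. Without WT-Tag tumors 8 and 9 again 0 receptors passed, of the 9 that still met the filter (Epha2 did not). The changes of Epha3 and Epha7 were then 0.44 and 0.37, and that of Ephb1 moved from 0.19 to -0.01.

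The cell type markers of the tumors had different medians in the 2 genotypes. Neuron markers had a median sum of 662 FPKM with K27M and 471 FPKM without it, and mature oligodendrocyte markers of 1201 and 609, with overlapping ranges (351 to 1195 and 163 to 779 for neurons). Their part in the tumor comparison was not tested.

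**Figure D3:**
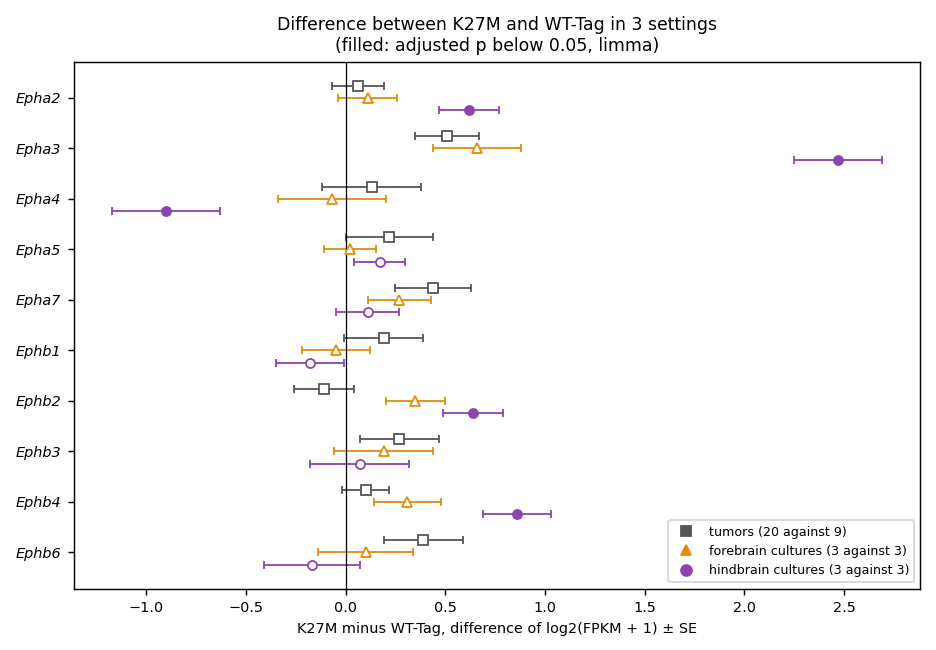
Difference between K27M and WT-Tag in log2(FPKM + 1) for each Eph receptor, with bars of ± 1 SE from limma, in tumors (squares), forebrain cultures (triangles) and hindbrain cultures (circles). Filled symbols passed an adjusted p of 0.05: the 5 filled symbols are all hindbrain cultures, with Epha3 at 2.47 and Epha4 at -0.90.

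The regions were then compared within each genotype. These comparisons use the same hindbrain libraries as the K27M comparison, so they are not independent of it. Forebrain and hindbrain libraries of the same genotype and experiment share a culture letter in the labels, a pairing that the main fit did not use. In WT-Tag cultures 1 of the 10 receptors differed between hindbrain and forebrain, where 1.82% of all genes passed: Epha7 had 3.00, 2.76 and 3.48 FPKM in hindbrain and 1.55, 1.10 and 1.21 in forebrain cultures of experiments 1 to 3. The groups did not overlap, and the difference was 0.84 ± 0.16 (adjusted p = 0.0211, limma). The call was lost without experiment 3 (adjusted p = 0.0962) and without WT-Tag forebrain replicate 2 (0.102), WT-Tag forebrain replicate 3 (0.0971) or WT-Tag hindbrain replicate 3 (0.0901).

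In K27M cultures 5 of the 10 differed between regions, where 7.92% of all genes passed, and the median difference was 0.39 against -0.01 for all genes. Higher in hindbrain were Epha3 (2.57 ± 0.22, adjusted p = 5.55e-05, limma), Ephb4 (0.85 ± 0.17, 0.01), Ephb2 (0.83 ± 0.15, 0.00777) and Epha7 (0.67 ± 0.16, 0.0268). The Epha3 libraries had 13.1 to 17.4 FPKM in hindbrain and 1.48 to 2.19 in forebrain, with a wide gap between them. Epha4 was lower in hindbrain, at 2.67 to 2.87 FPKM against 7.15 to 8.99, by -1.23 ± 0.27 (adjusted p = 0.017, limma). Without experiment 3 only the Epha3 call remained. The Epha4 call was also lost without any 1 of K27M forebrain replicates 1 and 2 and K27M hindbrain replicates 1, 2 and 3 (adjusted p from 0.0505 to 0.0718), and the Epha7 call without any 1 of K27M forebrain replicates 1 and 2 and K27M hindbrain replicates 1 and 3 (0.0554 to 0.103).

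Tumors were set against hindbrain cultures of the same genotype, which asks how the receptors in tissue compare with those in cultured progenitors. Tumor and culture also differ in the PDGF receptor and Trp53 alleles, the Cre line, the age and the mix of cells, so these differences cannot be told apart. In K27M libraries 8 of the 10 receptors differed and in WT-Tag libraries 5 did, where 59.6% and 46.3% of all genes passed. The median difference of the receptors was -0.47 in K27M and -0.50 in WT-Tag libraries, against 0.10 and 0.16 for all genes.

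Lower in tumors of both genotypes were Epha2, Epha3, Epha5, Epha7 and Ephb4. Epha3 had at most 3.07 FPKM in K27M tumors and at least 13.1 in K27M hindbrain cultures, a difference of -2.92 ± 0.24 (adjusted p = 6.72e-13, limma), and between WT-Tag tumors and cultures it differed by -0.96 ± 0.25 (0.00246). The WT-Tag value leaned on 1 culture: without WT-Tag hindbrain replicate 1 it was -0.67 (adjusted p = 0.0703, limma). Epha5 had at most 4.52 FPKM in K27M tumors and at least 6.72 in K27M cultures, with differences of -1.40 ± 0.30 and -1.44 ± 0.33 in K27M and WT-Tag libraries (adjusted p = 0.000184 and 0.000523, limma). Ephb4 had at most 2.98 FPKM in K27M tumors, in tumor 15, and at least 5.32 in K27M cultures, by -1.72 ± 0.17 (adjusted p = 1.21e-10, limma), and differed by -0.95 ± 0.18 in WT-Tag libraries (6.72e-05).

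Epha2 and Epha7 gave smaller differences. Epha2 differed by -1.05 ± 0.18 in K27M and -0.48 ± 0.20 in WT-Tag libraries (adjusted p = 9.57e-06 and 0.045, limma), the latter lost without WT-Tag hindbrain replicate 1 (-0.34, 0.258) or 3 (0.0766). Epha7 differed by -0.60 ± 0.26 and -0.93 ± 0.28 (adjusted p = 0.046 and 0.00715, limma), the former lost without any 1 of the 3 K27M hindbrain cultures (0.059 to 0.259). Proliferation markers were lower in tumors of both genotypes for 12 of 12 genes, at a median difference of -2.55 in K27M libraries, and neural stem and progenitor markers for 10 of 12, at -1.82 in K27M and -1.65 in WT-Tag libraries. Their median sums in K27M libraries were 120 FPKM in tumors and 714 in hindbrain cultures for proliferation, and 496 and 2264 for progenitors. Their part in the lower receptor levels was not tested.

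Higher in K27M tumors than in K27M hindbrain cultures were Epha4, Ephb1 and Ephb6. Ephb6 was above the median culture in 20 of 20 tumors, at 6.92 ± 2.09 against 2.47 ± 1.38 FPKM, by 1.20 ± 0.29 (adjusted p = 0.000532, limma). Ephb1, a class B receptor of axon guidance at the midline, was at 2.74 ± 1.26 and 0.868 ± 0.290 FPKM, by 0.93 ± 0.28 (0.00409). Epha4 was at 7.52 ± 3.24 and 2.73 ± 0.116, by 1.07 ± 0.35 (0.00923). The ranges overlapped for all 3: the lowest K27M tumors had 2.50 FPKM of Ephb6, 0.672 of Ephb1 and 2.37 of Epha4. The highest K27M hindbrain cultures had 4.01, 1.19 and 2.87. None of the 3 passed in WT-Tag libraries, where the differences were 0.64 ± 0.31 for Ephb6 (adjusted p = 0.0842, limma), 0.56 ± 0.30 for Ephb1 (0.117) and 0.04 ± 0.38 for Epha4 (0.94). The difference between the genotypes was not tested. Without WT-Tag tumors 8 and 9 Ephb1 did pass in WT-Tag libraries, at 0.76 (adjusted p = 0.0276, limma). Marker sums of neurons and mature oligodendrocytes were higher in the tumors, at 351 to 1195 FPKM and 667 to 1885 FPKM in K27M tumors against at most 98.7 and 33.0 in K27M hindbrain cultures, and their part in these differences was not tested.

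The ligands were followed in the same comparisons. In hindbrain cultures 2 of the 6 ephrin genes that passed the filter were higher with K27M (33.3%, where 13.5% of all genes passed), both ligands of class A receptors. They were Efna2, at 3.49 against 2.24 FPKM (0.47 ± 0.11, adjusted p = 0.0209, limma), and Efna4, at 4.13 against 2.56 (0.53 ± 0.14, 0.0334). Neither call held without experiment 3 or without WT-Tag hindbrain replicate 2 (adjusted p up to 0.13 for Efna2 and 0.254 for Efna4 over the alternatives), and each was lost without 3 or 4 other single libraries. Efna3 (0.57 ± 0.18, adjusted p = 0.0641), Efnb1 (0.39 ± 0.15, 0.103), Efnb2 (0.20 ± 0.19, 0.515) and Efnb3 (-0.28 ± 0.18, 0.306) did not pass (limma). Efna1 and Efna5 were too low to test in cultures, at means of at most 0.682 and 0.421 FPKM. In forebrain cultures 0 of 6 passed, and 2 had an unadjusted p below 0.05 (limma), as had 1726 of all 13190 genes. All 6 means were higher with K27M, and Efna2 was nearest, at 3.16 against 1.83 FPKM (0.55 ± 0.11, adjusted p = 0.0795, limma). The median change of the tested ephrins was 0.43 in hindbrain and 0.35 in forebrain cultures, against 0.09 and 0.04 for all genes.

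In tumors 0 of 7 tested ephrins passed between genotypes, and 2 had an unadjusted p below 0.05 (limma), as had 1104 of all 15360 genes. The 2 were Efnb3, the ephrin-B that marks the midline of the nervous system, at 11.4 against 6.98 FPKM (0.61 ± 0.28, adjusted p = 0.678, limma), and Efna3, at 3.00 against 1.92 (0.45 ± 0.22, 0.685). Against hindbrain cultures, Efna1 was higher in tumors of both genotypes, at 4.08 against 0.682 FPKM in K27M libraries (1.52 ± 0.29, adjusted p = 3.89e-05, limma), and Efnb3 was higher in K27M tumors (1.82 ± 0.39, 0.000133). Efna2, Efna4 and Efnb1 were lower in tumors of both genotypes, with differences of -0.89, -1.47 and -1.15 in K27M and -0.55, -0.93 and -0.57 in WT-Tag libraries. In WT-Tag libraries the Efna2 call was lost without WT-Tag hindbrain replicate 1 or 3 (adjusted p up to 0.119, limma), and that of Efnb1 without replicate 1 or with only the libraries compared (up to 0.0653). Of the other Eph receptors, Epha6 and Epha10 were measured at means of 2.24 and 1.80 FPKM in K27M tumors and at most 0.0507 in K27M hindbrain cultures (adjusted p = 0.00754 and 0.0124, limma). Efna1, Epha6 and Epha10 met the filter of 1 FPKM in 3 libraries mainly through tumors, so it favored this direction. The lowest K27M tumors had 0.047 FPKM of Epha6 and 0.030 of Epha10, near the culture level. In WT-Tag libraries neither passed, at 1.08 ± 0.50 and 0.85 ± 0.45 (adjusted p = 0.0711 and 0.115, limma), and Epha1 and Epha8 passed no filter.

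Of the 46 genes of Eph signaling and receptor processing, 42 were tested in cultures. In hindbrain cultures 6 were higher with K27M, 1 was lower and 35 did not pass, and the median change of 0.07 was close to the 0.09 of all genes. The calls were 16.7% of the 42, near the 13.5% of all genes that passed in that comparison. Grb10, an imprinted adaptor that binds tyrosine kinase receptors, stood out in size, at 24.5 against 3.87 FPKM (2.43 ± 0.26, adjusted p = 0.000585, limma), a call that held in each of 19 alternative settings. It was also higher with K27M in forebrain cultures, at 8.20 against 1.56 FPKM (1.86 ± 0.26, adjusted p = 0.0081, limma), where the call was lost without experiment 3, K27M replicate 1 or WT-Tag replicate 3 (adjusted p up to 0.247). Src, a kinase recruited by Eph receptors, was at 21.1 against 13.7 FPKM (0.62 ± 0.17, 0.036) and Vav3, a guanine nucleotide exchange factor, at 28.4 against 18.4 (0.62 ± 0.14, 0.0174) in hindbrain cultures. Chn1, a Rac-inactivating protein that acts below Epha4 in axons and was named after its value was seen, was the lower one, at 8.28 against 11 FPKM (-0.37 ± 0.09, 0.0214). The calls of Src, Vav3 and Chn1 were each lost without experiment 3, and without K27M hindbrain replicate 1 or 2 or WT-Tag hindbrain replicate 2 or 3. In tumors 0 of 44 tested signaling genes passed (limma), and 2 had an unadjusted p below 0.05, as had 1104 of all 15360 genes.

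Between regions, the largest signaling differences in K27M cultures were Grb10 (1.44 ± 0.26 higher in hindbrain, adjusted p = 0.00582, limma, but 0.137 without experiment 3), Nck2, an adaptor (0.91 ± 0.15, 0.00326), and Rgs3, which joins ephrin-B to G protein signaling and was lower in hindbrain (-0.83 ± 0.13, 0.00291). In WT-Tag cultures Vav3 (-0.65 ± 0.14, 0.0432) and Kalrn (-0.43 ± 0.10, 0.0489) were lower in hindbrain, and both calls were lost in more than 10 of 19 alternative settings. The Kalrn call was also lost with the experiment id as a replicate block.

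How the receptors varied together was described across the 29 tumors, with log2(FPKM + 1) centred within genotype. Of the 45 pairs, 23 passed a permutation test adjusted over the pairs, 15 with a positive and 8 with a negative correlation. Without WT-Tag tumors 8 and 9 these were 20 pairs, 15 positive and 5 negative, and the 3 lost were Epha4 with Ephb2, Ephb1 with Ephb2 and Ephb1 with Ephb3 (adjusted permutation p from 0.054 to 0.0809). The share passing among pairs of other genes was not counted, so these counts are not shown to be particular to the receptor pairs. The pairs fell into a pattern with Epha3, Epha4, Epha5, Epha7, Ephb1 and Ephb6 positively related among themselves, except that Epha3 did not pass with Epha5 or Ephb6 (adjusted permutation p = 0.0907 for each), and Epha2, Ephb2 and Ephb3 in part negatively related to them. The strongest was Epha4 with Ephb6 (Pearson r = 0.78, Spearman coefficient = 0.70, permutation p = 1e-05, the smallest that 100000 permutations can give, adjusted 0.00045). Its r was 0.76 with K27M, 0.84 with WT-Tag and 0.73 without the 2 tumors farthest from the median. Epha4 with Epha5 had r = 0.70 (Spearman = 0.68, permutation p = 5e-05, adjusted 0.00112), at 0.70 and 0.71 within the genotypes and 0.63 without the 2 farthest tumors. Epha5 with Ephb1 had r = 0.68 (Spearman = 0.76, permutation p = 0.00012, adjusted 0.0018), at 0.82 in K27M and 0.45 in WT-Tag tumors and 0.85 without the 2 farthest.

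Ephb2 and Ephb3 formed the main pair of the other group, with r = 0.57 (Spearman = 0.49, permutation p = 0.00131, adjusted 0.00842), at 0.40 in K27M and 0.91 in WT-Tag tumors and 0.52 without the 2 farthest tumors. Across the groups, Epha2 with Epha4 had the most negative value, r = -0.54 (Spearman = -0.64, permutation p = 0.00273, adjusted 0.0102), at -0.61 and -0.36 within the genotypes and -0.45 without the 2 farthest. Ephb4 passed with no other receptor. Receptor levels also moved with depth: r with log2 depth was -0.50 for Ephb1, -0.46 for Epha4 and 0.42 for Epha2, and between -0.31 and 0.35 for the other 7. The part of depth in the pairs was not tested.

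**Figure D4:**
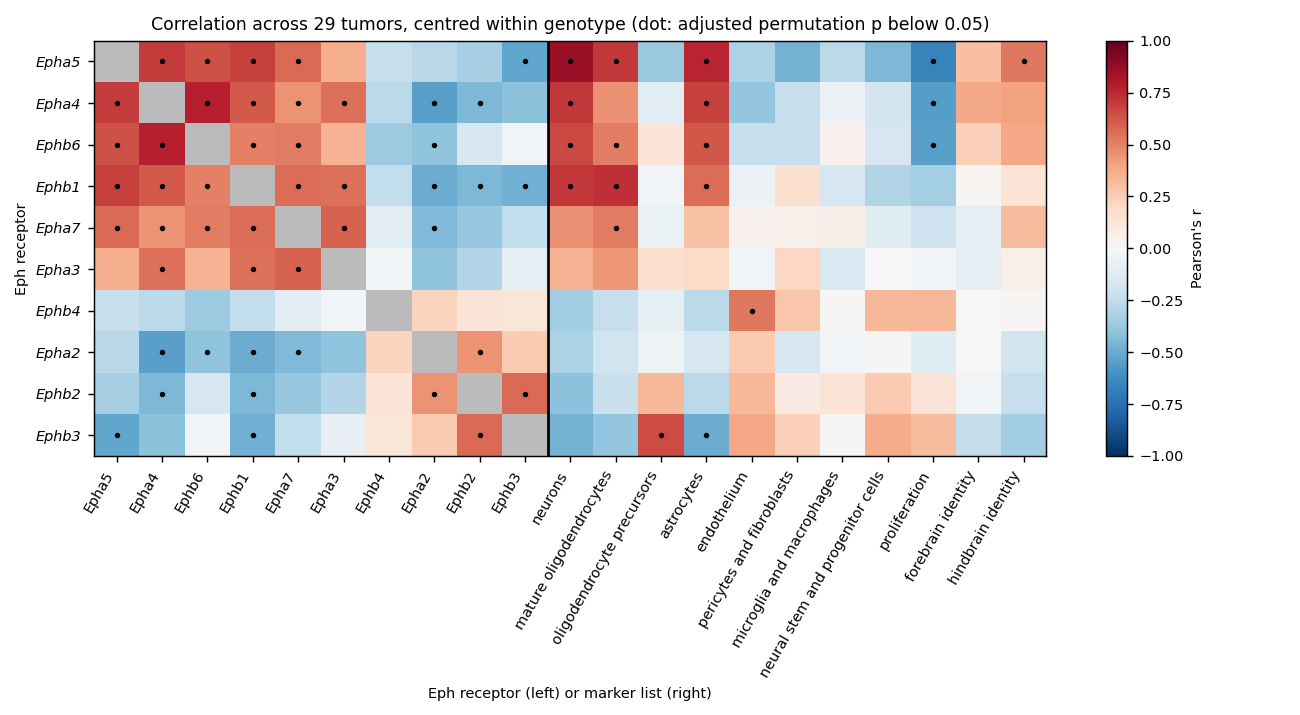
Pearson's r across 29 tumors of log2(FPKM + 1), centred within genotype, between the Eph receptors (left of the line) and between each receptor and the mean of each marker list (right of the line). Red is positive and blue negative, grey marks a gene with itself, and a dot marks an adjusted permutation p below 0.05, which holds for 23 of 45 receptor pairs and 19 of 110 pairs of a receptor and a list.

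The same tumors were compared with 11 marker lists, and 19 of 110 pairs passed the permutation test adjusted over the 110. The share for other genes was not counted. The number for the receptors was 13 without WT-Tag tumors 8 and 9. The 6 lost were Epha5 with hindbrain identity genes, Epha7 and Ephb6 with mature oligodendrocyte markers, Ephb1 and Ephb3 with astrocyte markers and Ephb6 with proliferation markers (adjusted permutation p from 0.0506 to 0.135). Epha5 followed the neuron markers most closely (r = 0.86, Spearman = 0.87, permutation p = 1e-05, adjusted 0.000825), at 0.90 in K27M and 0.78 in WT-Tag tumors and 0.87 without the 2 farthest tumors. Epha4 (r = 0.71, Spearman = 0.72, 0.66 without the 2 farthest), Ephb1 (0.71, 0.76 and 0.67) and Ephb6 (0.66, 0.68 and 0.67) also passed with neuron markers, at adjusted permutation p from 0.00088 to 0.00137. With mature oligodendrocyte markers 4 receptors passed: Ephb1 (r = 0.73, Spearman = 0.71, 0.66 without the 2 farthest, adjusted permutation p = 0.000825), Epha5 (0.71, 0.70, 0.72 and 0.000825), Epha7 (0.52, 0.46, 0.46 and 0.0384) and Ephb6 (0.51, 0.58, 0.50 and 0.0464). By Spearman's coefficient Epha7 did not pass with this list (adjusted permutation p = 0.0734), and Epha4 did (0.50, 0.0456). Epha4, Epha5, Ephb1 and Ephb6 passed with astrocyte markers too, at r from 0.56 to 0.76, and Epha4, Epha5 and Ephb6 passed negatively with proliferation markers, at -0.55, -0.67 and -0.54.

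Ephb3 was the receptor of the oligodendrocyte precursor markers (r = 0.65, Spearman = 0.55, permutation p = 0.00018, adjusted 0.0022), at 0.74 in K27M and 0.41 in WT-Tag tumors and 0.57 without the 2 farthest tumors. It was negatively related to astrocyte markers (r = -0.50, adjusted permutation p = 0.0427). Ephb4 passed with endothelial markers only (r = 0.53, adjusted permutation p = 0.0325), but Spearman's coefficient of 0.38 did not pass (adjusted 0.15) and r fell to 0.37 without the 2 farthest tumors. By Pearson's r, Epha2, Epha3 and Ephb2 passed with none of the 11 lists. By Spearman's coefficient Epha3 did pass with neuron markers (0.50, adjusted permutation p = 0.0456), where r was 0.35 and rose to 0.58 without the 2 farthest tumors. So did Ephb3, negatively, with neuron and mature oligodendrocyte markers (-0.49 and 0.0456 for each).

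The genes whose pattern over the 29 tumors was most like that of each receptor were taken from all 15359 other genes tested, as a description with no test. For Epha5 these were Lingo2, Arhgap26 and Odz1, at r of 0.94, 0.93 and 0.93, and for Epha4 Mkx, Camk1g and Tmem229a, at 0.90, 0.90 and 0.89. For Ephb6 they were Mgat3, Acvr1b and Camsap3 (0.91, 0.91 and 0.90), for Ephb1 9330132A10Rik, Arpp21 and Kcnj3 (0.91, 0.90 and 0.88) and for Epha7 Npy1r, 9330101J02Rik and Grm7 (0.86, 0.84 and 0.81). Ephb3 had Nfatc2, Sox10 and Pmepa1 (0.87, 0.86 and 0.84), of which Sox10 is a transcription factor of the oligodendrocyte lineage and one of the precursor markers used above. Ephb2 had Hmg20b, Sepn1 and Cap1 (0.87, 0.85 and 0.83), Epha2 had Zc3h12a, Klf6 and Pgd (0.78, 0.76 and 0.76) and Epha3 had Lztfl1, Kbtbd3 and Mterfd3 (0.76, 0.76 and 0.75). Ephb4 had the least alike neighbors, Fkbp10, Rassf1 and Fbxl12, at 0.74, 0.72 and 0.70, and the last pair fell to 0.41 and 0.33 without the 2 farthest tumors.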

How the data were processed

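The authors deposited 1 table of FPKM values, with 34591 entries and 41 libraries. RNA was extracted with Trizol and libraries were made with a stranded total RNA kit (TruSeq), per the labels' protocols, which also name ERCC spike-ins for the neurospheres. Per the submitters' processing notes the tools were CASAVA, TopHat2 and STAR and the build mm9, without versions or roles. The counting tool, the annotation and any use of strand were not given in the sources used here. Values of genes that overlap others or have an antisense partner are uncertain for that reason. No exon, isoform or protein sequence was used, and promoters come from RefSeq (GRCm38.p6), with no conversion from mm9.

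On log2(FPKM + 1), limma 3.58.1 (R 4.3.3) was run 2-sided, with a mean-variance trend and Benjamini-Hochberg adjustment over all genes tested (threshold 0.05). Genes with 1 FPKM or more in 9 tumors were tested, or in 3 libraries for fits that held cultures. The 12 cultures shared 1 estimate of the spread, and tumors were fitted alone except against cultures. Depth was recovered from the steps of FPKM values for 10182 genes with 1 transcript model. The step was chosen so that many values came near whole fragments. Between 90.7% and 92.7% of the 1005 to 2573 low values used per library came within 0.05 of a whole fragment. A step not chosen in that way would give 10%, so the percentages are no independent test. The limma step was tested on simulated data. No 2 libraries held identical values. Correlations used 100000 permutations within genotype.

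The experiment id of the cultures marks a shared experiment per the labels and was taken to pair them. Deviations of same-numbered K27M and WT-Tag cultures correlated at 0.41, 0.15 and 0.44 in hindbrain and at 0.44, -0.23 and 0.35 in forebrain for experiments 1, 2 and 3. Forebrain and hindbrain libraries of the same genotype and experiment also share a culture letter in the labels. Their deviations correlated at 0.67, 0.71 and 0.16 in WT-Tag and at 0.22, -0.05 and -0.04 in K27M cultures. The culture letter was not used as a block. A permutation test of 3 libraries against 3 could not reach a p under 0.1 and was not used.

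The 10 receptors and all gene lists were chosen with earlier results of these data known. Named were all receptors and ephrins, of the signaling list the 3 largest called changes in a comparison and, after its value was seen, Chn1, and the 3 genes most like each receptor in pattern. Alternatives were another pseudocount (0.1), no filter, upper quartile scaling, no trend, fits on fewer libraries, an experiment block, a sex covariate, and leaving out libraries, the last for tumors against cultures chosen after seeing the data.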

Additional observations from a re-analysis of the deposited data

How the results depend on the processing

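Of the calls on single receptors, 63 of 365 alternative values lost the threshold and 0 changed direction. In hindbrain cultures the 5 receptors called between K27M and WT-Tag became 2 without the filter, which adds genes to the adjustment, 1 without experiment 3 and 1 with only the hindbrain libraries, both of which leave fewer samples, and 2 to 5 when 1 library was left out. Between regions, the single WT-Tag call became 0 under each of the same 3 settings and 0 to 1 when 1 library was left out. The 5 K27M calls became 1 without experiment 3 and 3 to 5 when 1 library was left out. The difference of differences gave 0 to 2, and tumors against hindbrain cultures in WT-Tag libraries 3 to 5, when 1 library was left out. Of 23 receptor pairs correlated over tumors, 14 passed in K27M tumors alone, which are fewer samples.

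With the experiment id as a replicate block, which the labels support as a pairing, 5 receptors passed between genotypes in hindbrain, 0 in forebrain and 0 in the difference of differences, 1 between WT-Tag regions and 5 between K27M regions. These are the counts without the block, and it changed no other call of a receptor, while over all genes the difference of differences went from 5 calls to 0. Over all genes, upper quartile scaling moved the hindbrain K27M calls from 1111 higher and 676 lower to 960 higher and 1049 lower, and the median change from 0.09 to -0.01, and all 5 receptor calls held.

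Some uncalled changes turned sign: for K27M against WT-Tag, Ephb1 in tumors without tumors 8 and 9 (-0.008), Epha4 (0.043) and Ephb1 (0.019) in forebrain and Epha7 in hindbrain (-0.010) without experiment 3, and Epha5 in forebrain (-0.026) and Ephb3 in hindbrain (-0.018) with upper quartile scaling. Between regions they were WT-Tag Ephb1 (0.007) with that scaling and WT-Tag Ephb6 (from 0.22 to -0.006) and K27M Ephb3 (from 0.38 to -0.094) without experiment 3, and between WT-Tag tumors and cultures Epha4 (-0.026) with that scaling. Leaving out 1 library gave K27M changes of -0.027 to 0.252 for Epha4 in tumors, -0.030 to 0.050 for Epha5 and -0.171 to 0.011 for Ephb1 in forebrain, and -0.078 to 0.218 for Epha7, -0.191 to 0.272 for Ephb3 and -0.467 to 0.082 for Ephb6 in hindbrain. It gave -0.384 to 0.078 for the Ephb3 difference of differences, -0.143 to 0.125 for Ephb1 between WT-Tag regions, -0.342 to 0.207 for Ephb6 between K27M regions and -0.338 to 0.355 for Epha4 between WT-Tag tumors and cultures. The causes were not tested. Several receptors lie near 1 FPKM in some groups, where the added 1 in the log compresses changes, and with 3 cultures a group a missed threshold says little about equal levels.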
